A study of Mus musculus with 18 samples.

Results

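The transcripts described here are the 5 striated muscle isoform genes whose balance is used as a readout of cardiac hypertrophy in rodents, the myosin heavy chains Myh6, Myh7 and Myh7b and the sarcomeric actins Acta1 and Actc1. They were taken by gene symbol from the 51435 genes of the deposited tables, and all 5 were found in every library. The RNA came from the left ventricle (LV) of 18 mice, 9 wild type (WT) and 9 WWP2Mut/Mut, 1 library per mouse. WWP2Mut/Mut mice carry a CRISPR/Cas9 deletion of a few base pairs in exon 2 of Wwp2, an E3 ubiquitin ligase, on a C57BL/6J background. The deletion was made in the germ line, so it is present in all cell types, and by the methods' reading of the frameshift the full-length and N-terminal WWP2 isoforms lose function, while an effect on the C-terminal isoform is thought unlikely. Mice of both genotypes were male littermates and received angiotensin II (AngII), a pressor peptide, at 500 ng/kg/min for 28 days by osmotic pump from 8 weeks of age. Libraries of mice without AngII were not analysed here, so every level below is a level after AngII, and a shift of isoforms from the resting heart was not measured.

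Myosin heavy chain is the motor of the thick filament, and sarcomeric actin forms the thin filament on which it pulls. The adult mouse ventricle makes mainly the fast alpha chain (Myh6) and cardiac actin (Actc1). The slower beta chain (Myh7) and skeletal actin (Acta1) predominate or are more abundant in the fetal heart and return under pressure load, which is why the Myh7 to Myh6 and Acta1 to Actc1 ratios serve as markers of hypertrophy. Myh7b is a related heavy chain best known as the host gene of a microRNA.

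In these AngII-treated ventricles the adult isoforms made up nearly all of the myosin and most of the actin message. In TPM (a level per transcript length scaled by the authors within each mouse), Myh6 was 97.2% ± 1.11 (SD, n = 18) of the summed TPM of the 3 myosins, Myh7 2.08% ± 0.914 and Myh7b 0.758% ± 0.437. Actc1 was 89.7% ± 3.09 of the summed TPM of the 2 actins. The lowest Myh6 share in any mouse was 95.4%, and the lowest Actc1 share 80.8%. By median TPM over all mice the order was Actc1 (6491), Myh6 (2312), Acta1 (700), Myh7 (52.5) and Myh7b (13.9). Actc1 was above Myh6, Myh6 above Acta1 and Acta1 above Myh7 in 18 of 18 mice. Myh7 was above Myh7b in 16 of 18, with a ratio between 0.855 and 6.44, so the order within a mouse was broken only for this pair. Across mice the ranges of Myh6 and Acta1 also met, with Acta1 at 1776 TPM in mouse 62-1 and Myh6 at 1653 TPM in mouse 54-1. The spread between mice was smaller for the adult isoforms, with coefficients of variation of 17.3% for Myh6 and 27.8% for Actc1, and 44.1% for Myh7, 50.3% for Acta1 and 62.9% for Myh7b.

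**Figure D1:**
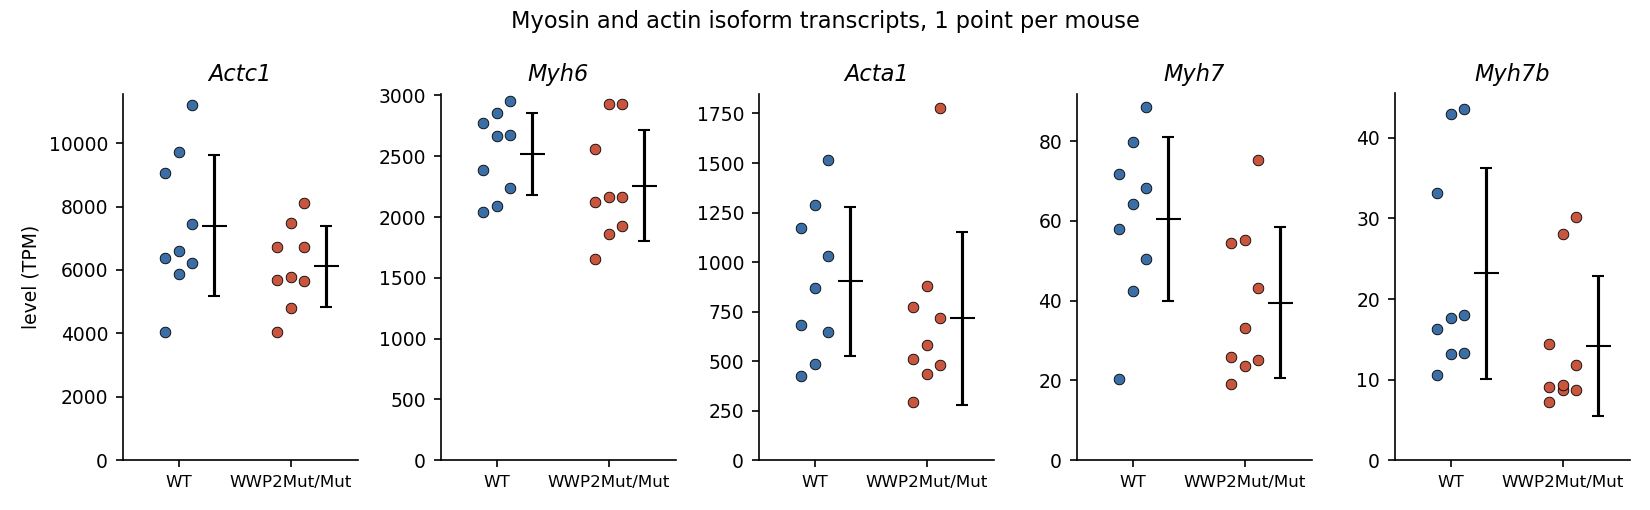
Level in TPM (vertical axes, linear from 0) of Actc1, Myh6, Acta1, Myh7 and Myh7b in each mouse. Each point is 1 mouse, WT in blue and WWP2Mut/Mut in red, and the bar beside each group is the mean ± SD of 9 mice. The genotypes overlapped for all 5 genes, and the highest Acta1 point is mouse 62-1 at 1776 TPM.

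The libraries held 24566994 to 37451087 counts each. Wwp2 was 5.09 TPM ± 0.600 in WT and 1.72 ± 0.528 in WWP2Mut/Mut (SD, n = 9 each), with every WWP2Mut/Mut mouse below every WT mouse. The summed TPM of the 7 ventricular cardiomyocyte markers was 31989 to 41861 in WT and 28654 to 41093 in WWP2Mut/Mut. Over all mice Myl2 had a mean of 21068 TPM beside a mean sum of 36081, while Ryr2 was at 43.4 and Irx4 at 9.40. The skeletal muscle marker sum, of which Myh4 was at 0 in all mice, was 3.36 to 6.98 TPM, a small fraction of the Acta1 level. Atrial markers stood apart in 5 mice with Myl7 above 10 TPM, 3 WT (43-3, 45-1 and 84-2) and 2 WWP2Mut/Mut (22-3 and 8-2), and the atrial sum of 6 markers ranged from 16 to 678 TPM in WT (median 22.8) and from 12.8 to 434 in WWP2Mut/Mut (median 24.8). The summed TPM of 8 liver markers reached 394 in WT (median 120) and 104 in WWP2Mut/Mut (median 49.6). The deposited RNA concentration was 1.68 ng/µl in WT mouse 43-3 and 88.6 to 320.9 ng/µl in the others, with means of 110 ± 51.5 in WT and 175 ± 73.6 in WWP2Mut/Mut. Fewer cardiomyocytes and less RNA per cardiomyocyte cannot be told apart in bulk tissue.

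Myh6 and Myh7 lie head to tail on chromosome 14, in GENCODE M21 coordinates of GRCm38. Myh6 (ENSMUSG00000040752) spans chr14:54941921-54966927 and Myh7 (ENSMUSG00000053093) chr14:54970684-54994626, both on the minus strand with 3756 bases between them. Their coding sequences were 91.7% identical over 5802 aligned bases of the main transcripts. Of all 100-base windows of the Myh6 transcript, 11.4% occurred unchanged in Myh7, and 5.53% of all 150-base windows, the length of a read. The longest shared run is shown because a read pair that falls wholly within such sequence cannot be assigned to either gene. It is 245 coding bases that cross from exon 30 into exon 31 of the 39 exons of Myh6 (chr14:54948612-54948725 and chr14:54948327-54948457) and from exon 32 into exon 33 of the 41 exons of Myh7 (chr14:54975234-54975347 and chr14:54974947-54975077).
Myh6 and Myh7 shared run: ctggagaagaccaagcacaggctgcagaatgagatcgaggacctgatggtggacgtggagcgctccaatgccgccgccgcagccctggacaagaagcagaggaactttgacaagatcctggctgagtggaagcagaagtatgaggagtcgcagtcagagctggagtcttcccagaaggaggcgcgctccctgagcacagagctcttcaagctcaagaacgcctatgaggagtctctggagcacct
The deposited counts bear the mark of this sharing. The expected counts of Myh6 and of Myh7 were not whole numbers in 18 of 18 mice, while their sum was whole to within 0.015 counts in 18 of 18. RSEM divides a read that fits several transcripts among them by estimated shares. Of the actins, Acta1 was not whole in 10 mice and Actc1 in 2. How far the division moves the low Myh7 values was not tested.

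Myh6, the alpha heavy chain, was lowest at 2042, median 2665 and highest at 2951 TPM in WT, and 1653, 2162 and 2932 in WWP2Mut/Mut. In WWP2Mut/Mut, 3 mice were below every WT mouse and 1 WT mouse was above every WWP2Mut/Mut mouse. Myh7, the beta heavy chain, was 20.4, 64.3 and 88.5 TPM (lowest, median, highest) in WT and 19.0, 33.2 and 75.3 in WWP2Mut/Mut, with means of 60.5 ± 20.6 and 39.5 ± 18.9 (SD, n = 9 each). Of the WT mice 6 of 9 were above the median of all mice and of the WWP2Mut/Mut mice 3 of 9, and the ranges overlapped almost fully because WT mouse 25-3 had 20.4 TPM. The difference of mean log2 TPM was -0.66 for Myh7, with a 95% interval of -1.30 to 0.00 from inverting the exact permutation test (two-sided, p = 0.0531). For Myh6 it was -0.17, with an interval of -0.41 to 0.07 (exact permutation test, p = 0.156). Differences of mean log2 TPM, here and below, are not corrected for a shift shared by many genes.

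Mhrt, a noncoding RNA transcribed antisense to Myh7, spans chr14:54968678-54974349 on the plus strand and overlaps 1273 exonic bases of Myh7. It was 41.1 TPM ± 11 in WT and 34.0 ± 8.10 in WWP2Mut/Mut, beside 60.5 and 39.5 TPM of Myh7. The library kit keeps strand, but the strand setting of the counting is not given in the sources used here, so the separation of Mhrt from Myh7 reads rests on that setting. Across 18 mice Mhrt and Myh7 had a Pearson r of 0.13 (permutation p = 0.629, adjusted over 16 relations 0.671). Spearman rho was 0.31 (permutation p = 0.211), and r was 0.42 without the 2 mice farthest from the Mhrt median.

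Myh7b (ENSMUSG00000074652, chr2:155611212-155634307, plus strand) and the other 2 myosins each carry a microRNA in an intron, and these microRNAs are known to act on the genes that set myosin type. Mir208a lies in intron 29 of Myh6, Mir208b in intron 31 of Myh7 and Mir499 in intron 19 of Myh7b. The mature strands are shown to let the family resemblance be seen, with the seed (bases 2 to 8) in capitals, from RefSeq on GRCm38.p6.
miR-208a-3p: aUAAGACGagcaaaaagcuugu
miR-208b-3p: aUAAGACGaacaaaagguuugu
miR-499-5p: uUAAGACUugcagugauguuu
The miR-208a-3p and miR-208b-3p seeds were identical, and miR-499-5p matched them at 6 of 7 seed bases. The rows of Mir208a, Mir208b and Mir499 were listed at 0 in all 18 mice. Libraries of poly(A) RNA do not capture mature microRNAs, so only the host transcripts are measured. Myh7b itself was 10.6, 17.7 and 43.6 TPM (lowest, median, highest) in WT and 7.24, 9.34 and 30.2 in WWP2Mut/Mut. It had the largest separation of the 5 genes, with 3 WT mice above every WWP2Mut/Mut mouse and 5 WWP2Mut/Mut mice below every WT mouse. The difference of mean log2 TPM was -0.72 with a 95% interval of -1.48 to 0.04 (exact permutation test, p = 0.0631).

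The actins lie on different chromosomes, Acta1 (ENSMUSG00000031972) at chr8:123891769-123894751 and Actc1 (ENSMUSG00000068614) at chr2:114047282-114053548, both on the minus strand. Their coding sequences were 86.3% identical over 1131 bases, but the longest run shared by the transcripts was 29 bases and no 50-base window was shared. Their promoters are shown for a comparison of motifs, and a part of these motifs in the levels was not tested. Each is 250 bases before to 50 after the RefSeq start on GRCm38.p6, minus strand, Acta1 at chr8:123894726-123895025 and Actc1 at chr2:114052826-114053125. Capitals mark exact matches, searched on both strands. The motifs are the CArG box of serum response factor (CCWWWWWWGG, with W for A or T), CATTCC, the MCAT motif of TEAD factors, and TATAAA. Near matches are not marked.
Acta1 promoter: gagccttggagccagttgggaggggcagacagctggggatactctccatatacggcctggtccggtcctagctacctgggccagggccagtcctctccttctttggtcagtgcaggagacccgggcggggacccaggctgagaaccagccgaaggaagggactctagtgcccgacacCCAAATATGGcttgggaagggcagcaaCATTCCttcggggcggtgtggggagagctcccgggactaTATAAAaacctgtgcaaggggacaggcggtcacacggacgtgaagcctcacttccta
Actc1 promoter: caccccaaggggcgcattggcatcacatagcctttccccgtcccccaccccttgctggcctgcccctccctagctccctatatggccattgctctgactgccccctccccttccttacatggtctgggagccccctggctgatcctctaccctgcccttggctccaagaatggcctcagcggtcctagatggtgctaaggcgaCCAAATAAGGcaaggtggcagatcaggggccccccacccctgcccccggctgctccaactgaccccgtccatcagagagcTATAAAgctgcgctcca
Acta1 held a CArG box starting at base -73 from the start, CATTCC at -46 and TATAAA at -7. Actc1 held a CArG box at -47 and TATAAA at 34. These positions depend on the RefSeq start. The GENCODE start of Acta1, chr8:123894751, lies downstream of it, and that of Actc1, chr2:114053548, lies upstream of the window. Of 32851 RefSeq promoters of this length 1.63% held a CArG box, 14.7% CATTCC and 13.6% TATAAA. Among the myosins, Myh6 held CATTCC on the minus strand and TATAAA, and these letters were not in the Myh7b window or in that of 1 of the 2 listed Myh7 starts. A match is a description of letters and not evidence of binding.

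Acta1, skeletal actin, was 424, 871 and 1514 TPM (lowest, median, highest) in WT and 291, 582 and 1776 in WWP2Mut/Mut. The highest and the lowest mouse were both WWP2Mut/Mut, mouse 62-1 at 1776 and mouse 52-1 at 291, and the groups overlapped otherwise. The next WWP2Mut/Mut mouse after 62-1 had 881 TPM. Actc1, cardiac actin, was 4045, 6599.9 and 11208 TPM in WT and 4055, 5788 and 8121 in WWP2Mut/Mut, with 3 WT mice above every WWP2Mut/Mut mouse. The difference of mean log2 TPM was -0.40 for Acta1 (95% interval -1.08 to 0.29, exact permutation test, p = 0.237) and -0.24 for Actc1 (-0.62 to 0.14, exact permutation test, p = 0.195).

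To compare the genotypes with lane and RNA concentration taken into account, genotype was fitted across 24804 genes with edgeR's quasi-likelihood test on expected counts. At a false discovery rate (FDR, Benjamini-Hochberg) below 0.05 it called 1 gene, Wwp2 (log2 fold change -1.40, SE 0.157, adjusted p = 0.00113), which is 0.00403% of the genes tested. Without the 5 mice with atrial transcripts the estimate for Wwp2 was -1.26 and the call ended (edgeR, adjusted p = 0.204). None of the 5 isoform genes was called. At an unadjusted p under 0.05 there were also 0 of the 5, against 3.66% of all genes (2.57% lower in WWP2Mut/Mut). DESeq2 called 4 genes in all and likewise 0 of the 5. All 5 estimates were below 0 (51.9% of all genes were), and the adult isoforms were closer to 0 than the others. With n = 18 mice, the log2 fold changes (WWP2Mut/Mut over WT) were -0.07 for Myh6 (SE 0.136, edgeR p = 0.607) and -0.05 for Actc1 (SE 0.134, edgeR p = 0.687). In the same fit (n = 18) the estimates were -0.37 for Myh7 (SE 0.240, edgeR p = 0.144), -0.44 for Myh7b (SE 0.334, edgeR p = 0.203) and -0.51 for Acta1 (SE 0.276, edgeR p = 0.0785), each with an adjusted p of 1.00. These are relative to a median over all genes of -0.01. In limma on log2(TPM + 1) with a mean TPM of at least 1 the median over all genes was -0.14. The differences of mean log2 TPM given above were not corrected for such a shift.

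The estimates of Acta1, Myh7 and Myh7b moved with the mice and covariates in the fit. The log2 fold change of Acta1 was -0.18 without covariates and -0.82 with the liver marker sum added (n = 18, edgeR p = 0.0111, adjusted p = 0.803). With RNA concentration on a log2 scale, it was -0.31 (n = 18, edgeR p = 0.308). It was -0.63 without the 5 mice with atrial transcripts (n = 13, edgeR p = 0.0387). Myh7 was -0.61 with lane as the one covariate (n = 18, edgeR p = 0.0227) and -0.18 with the liver marker sum added, and leaving out WT mouse 45-3 gave -0.13. Myh7b was -0.68 with gene body coverage added (n = 18, edgeR p = 0.00371, adjusted p = 0.412) and -0.11 without the 5 mice with atrial transcripts. With 1 mouse left out, Myh7b ranged from -0.78 without WWP2Mut/Mut mouse 24-3 to -0.25 without WT mouse 45-1. Myh6 turned to 0.02 without those 5 mice. Over all alternatives the lowest adjusted p of any of the 5 genes was 0.412.

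**Figure D2:**
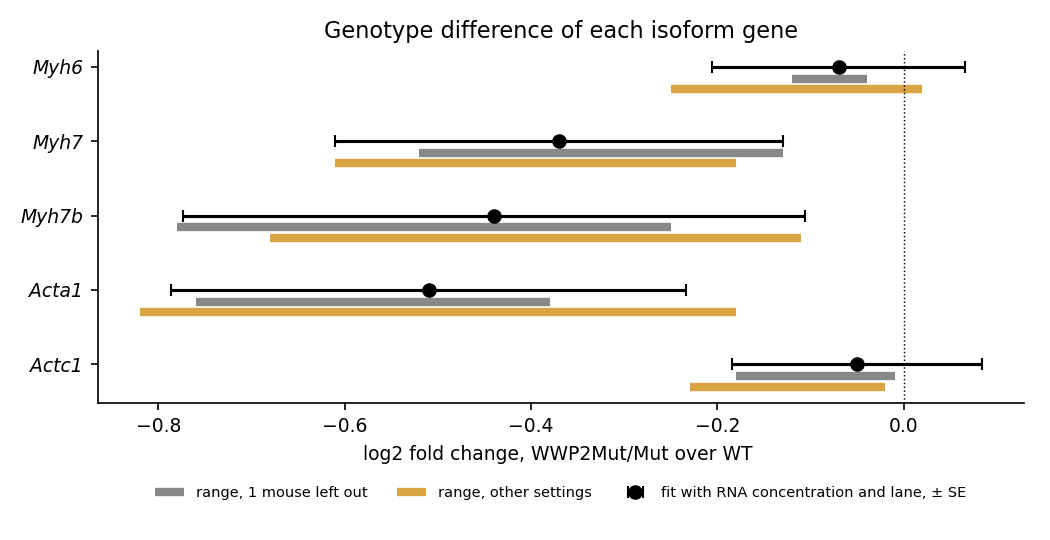
Log2 fold change of WWP2Mut/Mut over WT (horizontal axis, dotted line at 0) of each gene. Points with bars are the edgeR estimate ± SE of 18 mice, grey bars the range with 1 mouse left out and yellow bars the range over the other settings, DESeq2 and limma included. The estimates lie between -0.51 and -0.05, and the SE bars of Myh6 and Actc1 reach past 0.

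A ratio within a mouse does not depend on the scaling between libraries. Myh7 to Myh6 was 0.764%, 2.69% and 3.15% (lowest, median, highest) in WT and 0.860%, 1.48% and 3.48% in WWP2Mut/Mut. Of the WT mice 7 lay between 2.42% and 3.15%, with 94-2 at 1.48% and 25-3 at 0.764% below them, while 6 WWP2Mut/Mut mice lay between 0.860% and 1.78% and 53-1, 54-1 and 52-1 between 2.86% and 3.48%. The geometric means were 2.25% in WT and 1.61% in WWP2Mut/Mut, a ratio of 0.715. The difference of mean log2 ratio was -0.48 with a 95% interval of -1.23 to 0.27 (two-sided exact permutation test over 48620 divisions of the mice, p = 0.186, adjusted over the 2 ratios 0.371). Within lanes, which hold 2 or 3 mice of each genotype, it was -0.28, -0.59, -1.08 and -0.46 for lanes 1 to 4, with a mean of -0.60 (exact permutation within lanes, p = 0.0772). The difference was -0.15 in residuals of the ratio from lane and RNA concentration (exact permutation test, p = 0.503). Genotype was not in that regression, and mean RNA concentration differed by genotype (110 ng/µl in WT and 175 in WWP2Mut/Mut). Part of a genotype difference can therefore be lost from the residuals. The difference was -0.24 without the 5 mice with atrial transcripts (exact permutation test, p = 0.612). It was -0.68 without WT mouse 25-3 (exact permutation test, p = 0.05).

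Acta1 to Actc1 was 7.84%, 11.3% and 15.8% in WT and 7.18%, 8.82% and 23.8% in WWP2Mut/Mut. Of the WWP2Mut/Mut mice 2 were below every WT mouse and 62-1 was above every other mouse. The geometric means were 11.7% and 10.5%. The difference of mean log2 ratio was -0.15 with a 95% interval of -0.58 to 0.30 (exact permutation test, p = 0.486, adjusted 0.486). The lanes did not go one way, with differences of -0.75, 0.66, -0.09 and -0.59 for lanes 1 to 4 and a mean of -0.19 (exact permutation within lanes, p = 0.404). Without mouse 62-1 the difference was -0.30 (exact permutation test, p = 0.0853). It was -0.30 in residuals from lane and RNA concentration, again without genotype in the regression (exact permutation test, p = 0.115).

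**Figure D3:**
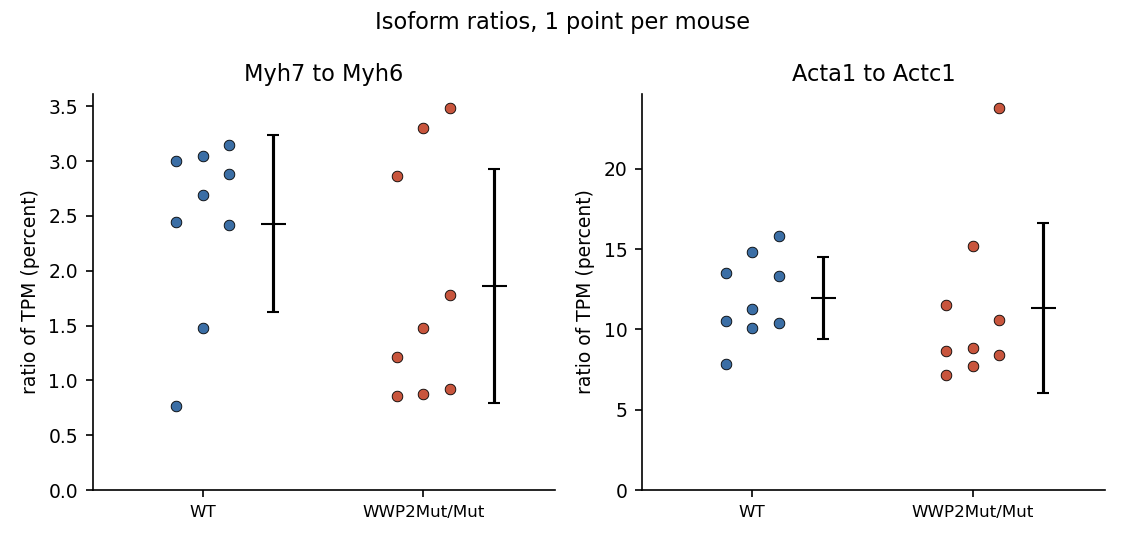
Myh7 to Myh6 and Acta1 to Actc1 ratios as percent of TPM (vertical axes, linear from 0). Each point is 1 mouse and the bar beside each group is the mean ± SD of 9 mice. The genotypes overlapped in both, and WWP2Mut/Mut mouse 62-1 stood at 23.8% for the actins.

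Whether the myosin and actin ratios rose together was examined across mice. The 2 ratios had a Pearson r of -0.28 (permutation p = 0.258, adjusted over 15 relations 0.330) and a Spearman rho of -0.26 (permutation p = 0.293). The correlation r was -0.15 without the 2 mice farthest from the median, -0.19 within WT (exact permutation p = 0.600) and -0.45 within WWP2Mut/Mut (exact permutation p = 0.224). It was -0.32 on lane residuals, with too few mice for a value within a lane, and -0.07 without mouse 62-1. Mouse 62-1 had the highest Acta1 to Actc1 ratio at 23.8% beside a Myh7 to Myh6 ratio of 0.860%, the lowest of its genotype. Mouse 52-1 was the reverse, with the lowest actin ratio at 7.18% and the highest myosin ratio at 3.48%. Both mice are WWP2Mut/Mut.

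**Figure D4:**
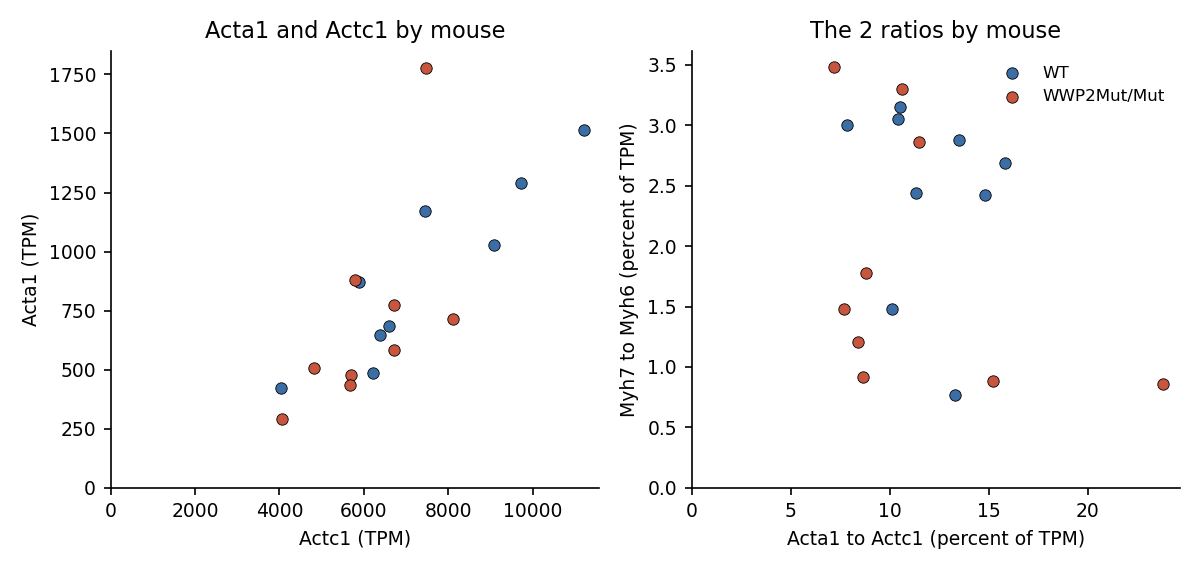
Left, Acta1 against Actc1 in TPM. Right, the Myh7 to Myh6 ratio against the Acta1 to Actc1 ratio, both in percent of TPM. Each point is 1 mouse. The actins rise together (r = 0.81 on the log2 scale), and the ratios do not (r = -0.28).

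The ratios were then set against other transcripts and against the sample records. Over all 18 mice none of the 15 relations passed after adjustment (lowest adjusted p 0.189). By Pearson r the largest for Myh7 to Myh6 was with RNA concentration, at -0.51 (permutation p = 0.0276, adjusted p = 0.189). Its rho was -0.32 (permutation p = 0.191). This r was -0.35 without mice 62-1 and 43-3, -0.72 on lane residuals, -0.23 within WT and -0.55 within WWP2Mut/Mut. By rho the largest for Myh7 to Myh6 was with the atrial marker sum, at 0.50 (permutation p = 0.0374, not adjusted), with an r of 0.26 (permutation p = 0.308). Acta1 to Actc1 had an r of 0.50 with Ankrd1, a stretch-responsive ankyrin repeat gene (permutation p = 0.0370, adjusted p = 0.189, rho 0.45, permutation p = 0.0643). This was 0.37 without the 2 mice farthest from the Ankrd1 median, 0.41 without mouse 62-1 (permutation p = 0.107), 0.39 without mouse 52-1 (permutation p = 0.117) and 0.47 on lane residuals, and it was -0.04 within WT and 0.68 within WWP2Mut/Mut (exact permutation p = 0.922 and 0.0401). The difference between those 2 values was not tested. With RNA concentration, Acta1 to Actc1 had an r of 0.33 (permutation p = 0.171, adjusted p = 0.330, rho 0.11, permutation p = 0.669), and -0.10 without mouse 62-1. Acta1 to Actc1 with log2 library total had an r of 0.49 (permutation p = 0.0378, adjusted p = 0.189, rho 0.53, permutation p = 0.0262), 0.29 without mice 52-1 and 33-1 and 0.52 on lane residuals. With Nppa, the atrial natriuretic peptide gene, r was 0.34 for the myosin ratio (permutation p = 0.176, rho 0.34, permutation p = 0.174) and 0.32 for the actin ratio (permutation p = 0.195, rho 0.32, permutation p = 0.194). With Nppb, the B-type natriuretic peptide gene, r was 0.27 (permutation p = 0.264, rho 0.17, permutation p = 0.485) and 0.31 (permutation p = 0.210, rho 0.41, permutation p = 0.0910). Without the 2 mice farthest from the median these values were 0.55 and 0.03 for Nppa and 0.19 and 0.16 for Nppb, and on lane residuals they were 0.40 and 0.28 for Nppa and 0.60 and 0.33 for Nppb. The relation of Acta1 to Actc1 with Nppb turned on mouse 62-1, without which r was 0.63 (permutation p = 0.00665, which did not pass after adjustment over the 15 relations). It was 0.63 within WT (exact permutation p = 0.0682) and 0.05 within WWP2Mut/Mut (exact permutation p = 0.896), a difference that was not tested.

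The atrial marker sum fell into 13 low and 5 high mice. Over all 18 mice its relations did not pass (adjusted p = 0.356 for Myh7 to Myh6 and 0.330 for Acta1 to Actc1), and since a value pooled over such clusters is not informative, all 15 relations were repeated within the 13 low mice, a restriction chosen after seeing the data. Of these, 1 passed after adjustment, that of Acta1 to Actc1 with Ankrd1, with an r of 0.78 (permutation p = 0.00159, adjusted p = 0.0238), a rho of 0.64 (permutation p = 0.0209) and an r of 0.67 without mice 52-1 and 24-3. It was 0.68 without mouse 62-1 (n = 12, permutation p = 0.0156, not adjusted over the 15 relations), the lowest with 1 mouse left out. The adjustment does not cover the choice of these 13 mice, which was made for the atrial sum and not for Ankrd1. Within a genotype no value was computed for these mice. Myh7 to Myh6 with the atrial sum had an r of 0.63 (permutation p = 0.0193, adjusted p = 0.145) and a rho of 0.78 (permutation p = 0.00263). In the low mice that sum is mainly 1 gene, Stard10, which made up 49.9% to 84.8% of it (median 73.1%), so the value is no measure of atrial tissue. Acta1 to Actc1 with the sum had an r of -0.28 (permutation p = 0.346, adjusted p = 0.432), and -0.84 without mice 33-1 and 53-1. The 5 high mice are too few for a value.

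The levels of the 5 genes were compared among themselves and with the deposited gene body coverage fraction. Together with Myh7 and Mhrt, given above, these were 16 relations chosen after seeing the data. Acta1 and Actc1 rose and fell together, with a Pearson r of log2(TPM + 1) of 0.81 (permutation p = 4e-05, adjusted p = 0.000480) and a rho of 0.83 (permutation p = 7e-05). The r was 0.77 without the 2 mice farthest from the Actc1 median, 0.89 within WT, 0.74 within WWP2Mut/Mut and 0.73 on lane residuals. It was 0.76 in log2 CPM (counts scaled by library total and the TMM factors of edgeR). Myh6 with Myh7 had an r of -0.02 (permutation p = 0.935, rho 0.06, permutation p = 0.809), and -0.04 in log2 CPM. Myh6 with Myh7b had an r of 0.24 (permutation p = 0.343, adjusted p = 0.458, rho 0.23, permutation p = 0.351) that was 0.59 in log2 CPM, and Myh7 with Myh7b had 0.32 on both scales (permutation p = 0.193, adjusted p = 0.343, rho 0.34, permutation p = 0.166). In TPM no other pair among the 5 passed after adjustment. Coverage, a fraction between 0.0288 and 0.0540 whose definition the table does not give, passed after adjustment with 3 of the 5 in TPM. Actc1 had an r of -0.81 with coverage (permutation p = 6e-05, adjusted p = 0.000480, rho -0.73, permutation p = 0.000920). Acta1 had -0.61 (permutation p = 0.00840, adjusted p = 0.0336, rho -0.55, permutation p = 0.0203), and Myh7b had 0.62 (permutation p = 0.00681, adjusted p = 0.0336, rho 0.52, permutation p = 0.0290).

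Within WT r was -0.92 for Actc1 (exact permutation p = 0.000364), -0.80 for Acta1 (exact permutation p = 0.0115) and 0.75 for Myh7b (exact permutation p = 0.0226). Within WWP2Mut/Mut it was -0.71 (exact permutation p = 0.0345), -0.45 (exact permutation p = 0.236) and 0.73 (exact permutation p = 0.0193). Without mice 16-1 and 52-1, the farthest from the coverage median, r was -0.68 for Actc1, -0.42 for Acta1 and 0.51 for Myh7b. On lane residuals it was -0.78, -0.48 and 0.61. In log2 CPM it was -0.54, -0.41 and 0.71, smaller than in TPM for the actins and larger for Myh7b. Of the others, Myh7 with coverage went from 0.21 in TPM to 0.44 in log2 CPM, and Myh6 turned from -0.44 to 0.34. The relation of Acta1 passed after adjustment with 10 of the 18 single mice omitted in turn and that of Myh7b with 12 of 18, while that of Actc1 passed with 18 of 18. Both actins moved the same way, and their ratio had an r of -0.24 with coverage (permutation p = 0.336, rho -0.18, permutation p = 0.467). The part of coverage in the levels of Myh7b and the actins was not tested. Coverage was 0.0387 ± 0.00861 in WT and 0.0401 ± 0.00825 in WWP2Mut/Mut.

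**Figure D5:**
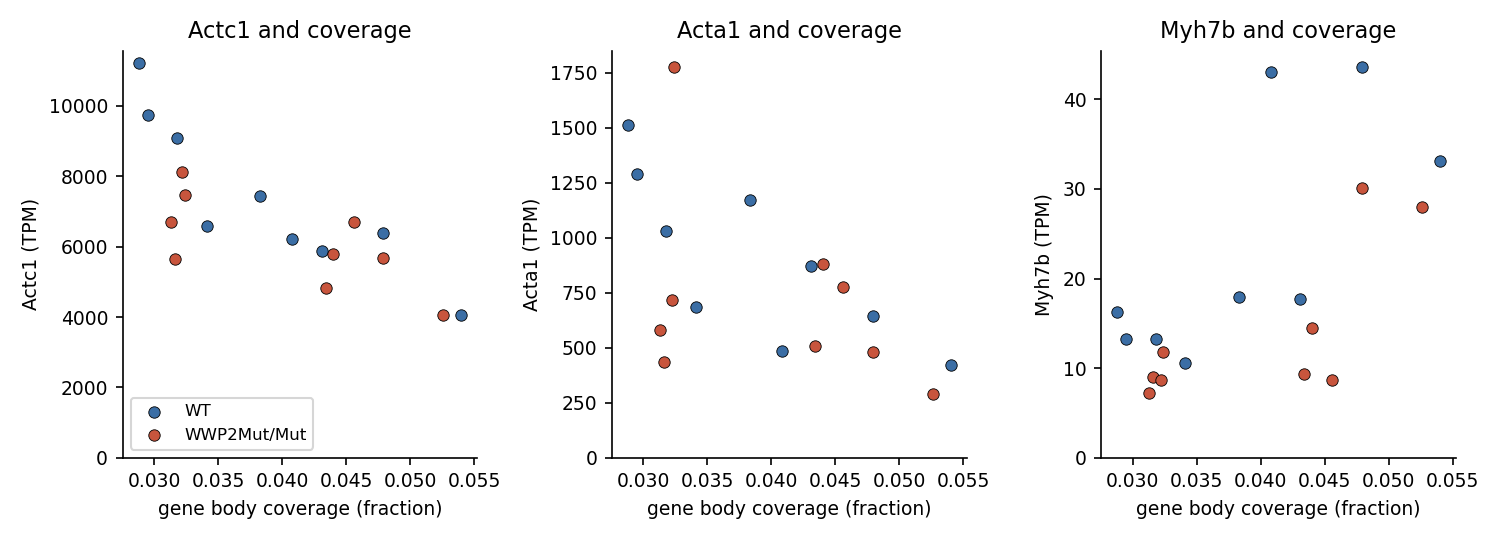
Actc1, Acta1 and Myh7b in TPM (vertical axes) against the deposited gene body coverage fraction (horizontal axes). Each point is 1 mouse. Over 18 mice r was -0.81, -0.61 and 0.62 on the log2 scale.

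Genes of the same filaments were then compared between genotypes in the same fit. None of the 7 thick filament genes was called or had an unadjusted p under 0.05, among them Myl2, the ventricular regulatory light chain (log2 fold change 0.11, SE 0.201), and Mybpc3, the cardiac myosin binding protein C (-0.05, SE 0.124). None of the 11 thin filament genes was called and 1 had an unadjusted p under 0.05, Tpm2, beta-tropomyosin, at 0.42 (SE 0.180, n = 18, edgeR p = 0.0300, adjusted p = 1.00), beside 3.66% of all genes at that level. The fetal troponin I gene Tnni1 was at 0.510 TPM ± 0.473 over all mice beside 6214 ± 1234 for the adult cardiac Tnni3. Of the other myosin heavy chains, Myh4 and Myh15 were at 0 in all mice, Myh1, Myh2, Myh3, Myh8 and Myh13 were at a mean below 0.1 TPM, and the nonmuscle chains Myh9, Myh10 and Myh14 were at 11.8, 6.10 and 18.8 TPM. None of the 9 tested was called. Among the other actins, the smooth muscle form Acta2 was 89.1 TPM ± 26.2 and the cytoplasmic forms Actb and Actg1 were 171 ± 30.9 and 189 ± 42.4, all below Acta1 by mean, and 0 of 4 were called.

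Genes known to rise with cardiac stress gave 0 of 10 called and 1 at an unadjusted p under 0.05 (3.66% of all genes), with a median log2 fold change of -0.27 beside -0.01 over all genes tested. That gene was Rcan1, a calcineurin target (-0.52, SE 0.217, n = 18, edgeR p = 0.0269, adjusted p = 1.00). Nppb was 235, 835 and 1280.5 TPM (lowest, median, highest) in WT and 140, 327 and 651 in WWP2Mut/Mut, with 6 WT mice above every WWP2Mut/Mut mouse, and its log2 fold change was -0.66 (SE 0.336, n = 18, edgeR p = 0.0639, adjusted p = 1.00). Nppa was 718 TPM ± 235 and 641 ± 157 (log2 fold change 0.05, SE 0.294). The 10 stress genes include Myl4 (-0.33, SE 1.24) and Myl7 (0.14, SE 2.10), which are also atrial markers here. Tnni1, at a mean of 0.510 TPM, is among them too. Of 27 regulators of the isoform genes 0 were called and 0 had an unadjusted p under 0.05, with a median of -0.05. They include the thyroid hormone receptor Thra (log2 fold change 0.14, SE 0.124), through which thyroid hormone raises Myh6 and lowers Myh7, the serum response factor gene Srf (-0.06, SE 0.133), Tead1, a factor that binds MCAT motifs (-0.36, SE 0.390), and Med13, a target of miR-208a (-0.20, SE 0.219).

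The genes whose levels were most like those of each isoform were found by Pearson r of log2(TPM + 1) over 18 mice among 11336 genes with a mean TPM of at least 1. For Myh7 they were Ces1d, a carboxylesterase (r = 0.84), Ndufv1, a subunit of respiratory complex I (0.82), Srp9 (0.78), Hmgn2 (0.74) and Hhatl (0.74). For Acta1 they were Hspb6, a small heat shock protein of muscle (0.91), Il18bp (0.89), Lmod3, a leiomodin of the thin filament (0.87), Srm (0.85) and Plekho1 (0.85). For Myh6 they were Htatsf1 (0.92), Zswim9 (0.92) and Ehbp1l1 (0.90). For Actc1 they were Timmdc1, Cycs, the cytochrome c gene, and Dnajc8, each at 0.96. For Myh7b they were Luc7l, a splicing factor gene (0.97), Neat1, a nuclear noncoding RNA (0.95), and Atg16l2 (0.94). Neat1 was 178 TPM in WT and 122 in WWP2Mut/Mut. These values were picked as the highest of many and share depth, scaling and coverage across the same mice.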

How the data were processed

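Poly(A) RNA of the LV was sequenced from 18 mice, 1 library each. The authors aligned reads with STAR 2.5.2b to the mouse genome m38, quantified Ensembl 89 genes with RSEM 1.2.31 and removed rRNA and mitochondrial genes. They deposited expected counts, of which 5.11% were not whole, and TPM, whose totals were 671770 to 826381 per mouse after that removal. The deposited sample table also gave lane, RNA concentration and a gene body coverage fraction. Library totals were 24566994 to 37451087 counts.

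Ensembl IDs were matched to symbols in GENCODE M21 names (51242 of 51435). Expected counts, rounded, were fitted for the 24804 genes with a total above 1 with edgeR 4.0.16 (TMM, quasi-likelihood test, R 4.3.3), with lane and mean-centred RNA concentration in the model, and p values were adjusted over all genes by Benjamini-Hochberg. Alternatives used DESeq2 1.42.0, limma 3.58.1, other size factors, filters, covariates and pseudocounts, and each mouse left out. Ratios are of TPM on the log2 scale, tested by two-sided exact permutation of 9 and 9 mice. Their intervals hold the shifts that this test does not refuse at the 0.05 level. Correlations of levels are of log2(TPM + 1) and used 100000 permutations, exact within a genotype. Named genes are the 5 isoforms, Wwp2, genes of fixed lists, called genes and the genes most correlated with each isoform. Replicates are separate mice, and no mouse number is shared by the genotypes. The covariate on a log2 scale, the analyses without mice with atrial transcripts and the 16 relations of levels were chosen after seeing the data. Members and lists were chosen with earlier results of these data known. Code was tested on simulated data. Python 3.11.15 with numpy 2.4.6, pandas 2.3.3, scipy 1.17.1 and matplotlib 3.10.9 was used.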

Additional observations from a re-analysis of the deposited data

Results flagged for a closer look

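In each genotype of 9 mice the highest and the lowest mouse were compared with the nearest other mouse for the 5 genes, Mhrt and both ratios, and a gap above Dixon's critical share of the group's range was marked (a share that chance passes in about 1 of 20 groups). Of the 16 groups tested, 3 held such a mouse. WWP2Mut/Mut mouse 62-1 had 1776 TPM of Acta1, with the next mouse of its genotype at 881, a gap of 0.603 of the range. The same mouse had an Acta1 to Actc1 ratio of 23.8%, with the next at 15.2%, a gap of 0.515 of the range. It also had the highest RNA concentration, 320.9 ng/µl, and its liver marker sum of 28.1 TPM was the lowest of all mice. The part of these values in its Acta1 level was not tested. WT mouse 94-2 had 68.9 TPM of Mhrt, with the next WT mouse at 44.0, a gap of 0.702 of the range, beside 42.4 TPM of Myh7 and the highest Myh7b level of the series, 43.6 TPM.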

How the results depend on the processing

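No paired analysis was possible because the genotypes share no mouse number, and the labels do not say what the numbers stand for. Of 35 alternatives for each of the 5 genes none called a gene, and 8 of the 175 gene and setting combinations had an unadjusted p under 0.05, 1 for Myh7b, 2 for Myh7 and 5 for Acta1. Direction was kept except for Myh6 without the mice with Myl7 above 10 TPM (0.0224). With 1 mouse left out, the log2 fold change ranged from -0.12 to -0.04 for Myh6, -0.52 to -0.13 for Myh7, -0.78 to -0.25 for Myh7b, -0.76 to -0.38 for Acta1 and -0.18 to -0.01 for Actc1. The difference of mean log2 ratio ranged from -0.68 to -0.37 for Myh7 to Myh6 and from -0.30 to -0.08 for Acta1 to Actc1. The number of genes called was 4 with DESeq2, 2 with limma on log2(TPM + 1) and 0 without the mice with Myl7 above 10 TPM, where Wwp2 was at -1.26 (510 at an unadjusted p under 0.05), and 1 to 2 with 1 mouse left out (2 without WT 84-2 or WWP2Mut/Mut 1-2). The causes were not tested. The relation of Myh7 to Myh6 with Acta1 to Actc1 ranged from -0.38 to -0.07 with 1 mouse left out. That of Myh7 to Myh6 with Ankrd1 turned from -0.14 to 0.0053 without WWP2Mut/Mut 52-1, and that of Acta1 to Actc1 with RNA concentration from 0.33 to -0.10 without WWP2Mut/Mut 62-1 and was 0.486 without WT 43-3. With log2(TPM + 0.1) the median over all genes was -0.11.

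The lowest count of an isoform gene in any mouse was 1143, for Myh7b. Limits are the spread between 9 mice a genotype, the reads shared by Myh6 and Myh7, the unstated strand setting around Mhrt, the RNA concentration of 1.68 ng/µl of WT 43-3, which enters the fit as a covariate and whose correctness was not tested, and the absence of mice without AngII from what was analysed here.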

Other observations

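Of the marker lists of other tissues, that of liver had the most members at a low unadjusted p. All 8 liver markers had a negative log2 fold change with an unadjusted p under 0.05, beside 2.57% of all genes lower at that level, with a median of -1.75, and none passed the FDR (lowest adjusted p 0.837, for Ahsg, the fetuin A gene, at -1.55, SE 0.386). Alb, the albumin gene, had a median of 22.5 TPM in WT and 3.96 in WWP2Mut/Mut. Of the 5 smooth muscle and pericyte markers, 0 were called, 1 had an unadjusted p under 0.05 (3.66% of all genes), 3 were above and 2 below 0, and the median was 0.40. Tagln was at 0.48 (SE 0.208, n = 18, edgeR p = 0.0324, adjusted p = 1.00) and Myh11 at 0.44 (SE 0.215, edgeR p = 0.0548, adjusted p = 1.00), while Cnn1 was at 0.40 (SE 0.258), the pericyte gene Rgs5 at -0.05 (SE 0.151) and Notch3 at -0.16 (SE 0.149). The smooth muscle actin Acta2 was at 0.15 (SE 0.200). With the liver marker sum added to the fit, the log2 fold change was -0.82 for Acta1, -0.18 for Myh7 and -0.20 for Myh7b. These genes were singled out after their values were seen.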
